A study of Arabidopsis thaliana with 18 samples.

Results

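Tau glutathione transferases are encoded in Arabidopsis thaliana by GSTU genes, and 10 of them are described here over 6 labelled times of day. The members were found by symbol: among probe sets assigned to a single gene, all those whose gene is called GSTU with a number were taken, and the 10 genes with the highest mean signal over 18 arrays were kept. That rule found 11 GSTU genes, each with 1 probe set, among 13356 genes that had a probe set of their own. RefSeq's gene table lists 28 coding genes of the tau class, and the other 17 were not analysed here. In order of mean signal the members are GSTU20 (AT1G78370), GSTU18 (AT1G10360), GSTU27 (AT3G43800), GSTU16 (AT1G59700), GSTU26 (AT1G17190), GSTU23 (AT1G78320), GSTU28 (AT1G53680), GSTU22 (AT1G78340), GSTU25 (AT1G17180) and GSTU21 (AT1G78360). The last of them, GSTU21, had a mean signal of 2.53, and the one gene left out, GSTU15 (AT1G59670), had 1.43. Mean level chose the members, so no result is drawn from the levels themselves, and signals of different probe sets are not compared. GSTU18 and GSTU20 were named for opposite phases when the family was picked, with earlier results of these data known. Their tests over time, and counts of members that hold them, are therefore descriptions and no evidence about the family.

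All plants were wild-type Col-0, aged 5 to 6 weeks, with no treatment named in the labels, and full rosettes were taken at 0, 4, 8, 12, 16 and 20 h. The labels do not say when the light came on or went off. Each array holds RNA of 15 rosettes ground together, so differences between plants were averaged out before measurement. Every time has 3 arrays, 1 from each of 3 courses grown separately and called series A, B and C here. Because the tissue is mixed, fewer cells of a type and less RNA per cell cannot be told apart.

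Glutathione transferases join the tripeptide glutathione to reactive, often toxic compounds, and the conjugates are then moved into the vacuole by ABC transporters and broken down. The tau class is specific to plants, works in the cytosol as dimers with a serine in the active site, and is known for detoxifying herbicides and for strong induction by stress chemicals and hormones. Many of its genes lie in tandem arrays of close copies. Among the members, GSTU20, GSTU21, GSTU22 and GSTU23 stand beside one another on chromosome 1, GSTU25 and GSTU26 are neighbours, and GSTU18 overlaps ERD9, which is also known as GSTU17. Whether RNA of close copies bound to these probe sets was not tested.

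The arrays labelled 4 h and 16 h in series B were closer to the other series at the time 12 h away than at their own time. For the first, the mean correlation over all probe sets was 0.945 with arrays of 4 h and 0.963 with those of 16 h. For the second it was 0.946 with arrays of 16 h and 0.967 with those of 4 h. The 4 h and 16 h arrays of the other series were about level between both times, with differences of 0.00136 or less in either direction. Their means include the arrays of series B, so the values do not show that 4 h and 16 h were alike in series A and C. Because of the values of series B, the main tests are given with and without its 4 h and 16 h arrays. These arrays were picked by the same data, so lower p-values without them follow in part from that choice. In series C a ubiquitin control read at both ends of its transcript had a 3'/5' signal ratio of 2.73 to 4.39, against 1.52 to 1.82 in series A and B together. Of the leaf markers, 5 of 9 had a named probe set, and RCA (Rubisco activase) had signals of 2816.6 to 7780.1 over the 18 arrays. None of these 5 passed the test over the 6 times with all arrays (limma F test, adjusted p of 0.73 or more). LHCB4.2, a light-harvesting antenna protein, ran from 831.7 to 5825.8, and its adjusted p was 0.73 with all arrays and 0.0085 without the arrays labelled 4 h and 16 h in series B. SBPASE (0.0146) and RCA (0.0488) passed the test of a 24 h cosine with series as a replicate block, and neither passed it without the block. Of the root markers, 2 of 5 had a named probe set. PYK10 (a beta-glucosidase of root and hypocotyl) had signals of 127.4 to 266.1 and EXPA7 (a root hair expansin) 1.7 to 19.2. Neither passed the test over the 6 times (limma F test, adjusted p = 0.953 and 1). Their part in the results was not tested.

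GSTU20, also known as a partner of the jasmonate-conjugating enzyme FIN219/JAR1, was lowest at 0 h and highest from 4 to 12 h. In series A its signal was 733.5, 1519.9, 1815.8, 1720.8, 1006.6 and 840.2 at 0, 4, 8, 12, 16 and 20 h. In series B it was 626.8, 981.7, 1520.5, 1608.2, 1335.1 and 852.2, and in series C it was 862.2, 1844.9, 1825.2, 1961.0, 1024.7 and 1043.7 at the same times. The 8 and 12 h arrays were all above every array of 0, 16 and 20 h. Series B broke the order at 4 h, where its array lay below those of series A and C, and at 16 h, where it lay above them. Mean signals were 740.8 ± 117.9 at 0 h, 1449 ± 436 at 4 h, 1720 ± 173 at 8 h, 1763 ± 180 at 12 h, 1122 ± 185 at 16 h and 912 ± 114 at 20 h (SD, n = 3 each). The 6 time means spanned 1.26 in log2 units (moderated F test in limma, adjusted p = 0.0031).

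GSTU18 ran the other way, with its maximum at 0 h and its lowest signals from 8 to 16 h. In series A its signal was 593.9, 282.6, 251.3, 270.7, 314.2 and 491.8 at 0, 4, 8, 12, 16 and 20 h. In series B it was 532.4, 281.0, 224.9, 181.6, 248.8 and 478.3, and in series C it was 519.8, 248.5, 220.5, 203.4, 205.9 and 430.5. All arrays of 0 and 20 h were above every array of the 4 other times. Mean signals were 548.7 ± 39.6 at 0 h, 270.7 ± 19.2 at 4 h, 232 ± 16.7 at 8 h, 219 ± 46.4 at 12 h, 256 ± 54.5 at 16 h and 467 ± 32.2 at 20 h (SD, n = 3 each). The time means spanned 1.34 in log2 units (moderated F test in limma, adjusted p = 8.19e-05), and the call held under every setting tried, also with each array and each series left out in turn.

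**Figure D1:**
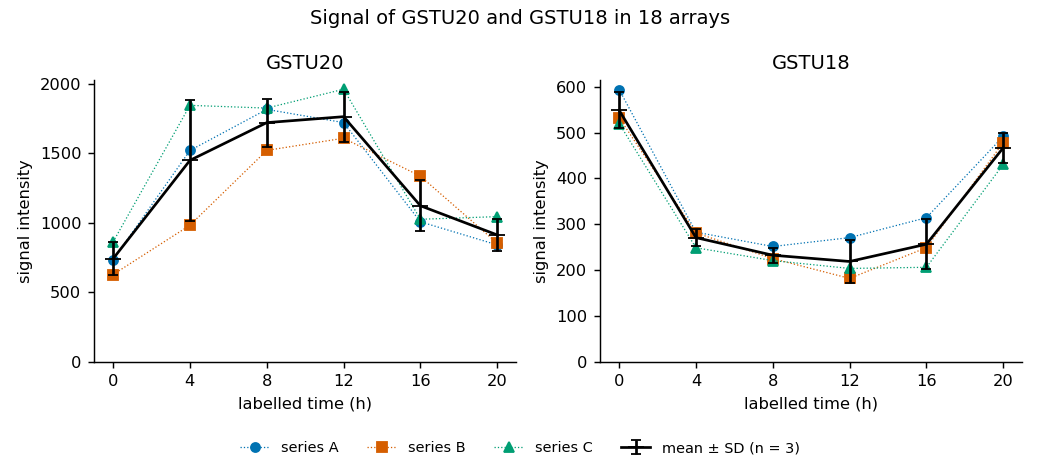
Signal intensity (linear scale, y axis) of GSTU20 (left) and GSTU18 (right) against labelled time in hours (x axis). Symbols joined by dotted lines are the arrays of series A, B and C and the black line is the mean ± SD of 3 arrays. GSTU20 has its lowest mean at 0 h (740.8) and its highest at 12 h (1763), while GSTU18 has its highest at 0 h (548.7) and its lowest at 12 h (219).

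Of the 10 members, 3 changed over the 6 times, against 6.53% of all 22746 probe sets tested (limma moderated F test, Benjamini-Hochberg adjusted p below 0.05). GSTU20 and GSTU18, named when the family was picked, are among them. Without the arrays labelled 4 h and 16 h in series B the same 3 were called, against 12% of all probe sets, with adjusted p-values of 0.000118 for GSTU20, 0.000106 for GSTU18 and 0.0359 for GSTU26. With series as a replicate block, 4 were called against 11.3%. The third was GSTU26, a gene known to respond to chloroacetanilide herbicides and to encode an enzyme that acts on them. Its signal was 22.6, 52.0, 59.6, 42.3, 29.0 and 28.5 over the 6 times in series A, 25.5, 32.7, 59.3, 74.1, 41.4 and 27.7 in series B, and 21.7, 31.6, 51.9, 50.6, 38.2 and 47.6 in series C. It was low at 0 h in each series and highest at 8 or 12 h, as GSTU20 was. Mean signals were 23.3 ± 1.99 at 0 h, 56.9 ± 4.36 at 8 h and 55.7 ± 16.5 at 12 h (SD, n = 3 each), and the range was 1.25 (adjusted p = 0.0454). The call of GSTU26 was close to the threshold and was lost when any 1 series was left out (adjusted p = 0.238 to 0.501) and with 13 of the 18 arrays left out singly (up to 0.142). It was also lost with a larger offset added before taking logs (0.052) and with no variance trend (0.053). The call of GSTU20 was lost without series A (adjusted p = 0.437) and without series C (0.0755). The median range of the 10 members was 1.13 on the log2 scale, beside 0.64 for all probe sets. The largest ranges were those of GSTU25 (1.99) and GSTU21 (1.40), which had very low signals and were not called. A range grows with noise, so no result is drawn from these medians.

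GSTU16 and GSTU27 varied less than these, and neither passed the F test. GSTU16 had 152.3, 149.9, 76.3, 108.5, 96.4 and 118.1 in series A, 128.1, 93.2, 101.6, 52.8, 112.2 and 109.2 in series B, and 196.9, 99.7, 60.9, 106.0, 97.4 and 118.3 in series C. The 0 h array was the highest of its series each time, with a mean of 159.1 ± 34.9 at 0 h, and the lowest mean was 79.6 ± 20.5 at 8 h (SD, n = 3 each; adjusted p = 0.18, and 0.0295 without series B). GSTU27 had 218.2, 229.5, 208.6, 279.3, 263.3 and 223.5 in series A, 198.5, 284.6, 293.6, 232.9, 232.6 and 207.6 in series B, and 214.9, 212.8, 259.7, 353.7, 369.6 and 238.3 in series C. Its maximum fell at 12 h, 8 h and 16 h in series A, B and C, and its time means stayed between 210.5 ± 10.6 at 0 h and 288.6 ± 60.9 at 12 h (adjusted p = 0.62).

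GSTU23 had 1 array at 4 h apart from the others. At 4 h it had 14.7 in series B, the lowest of all 18 arrays, beside 51.5 (series A) and 52.0 (series C). Its mean was 39.4 ± 21.4 at 4 h and between 23.5 and 27.2 at the other times (limma F test, adjusted p = 1 with all arrays and 0.4 without the arrays labelled 4 h and 16 h in series B).

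**Figure D2:**
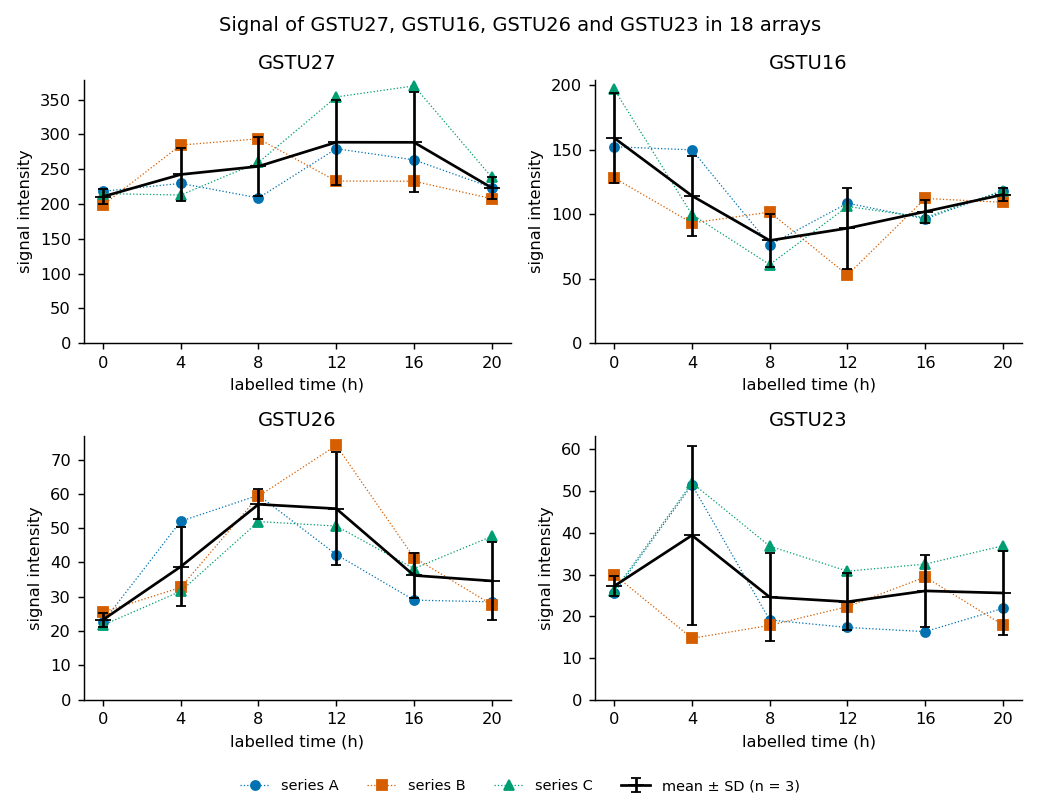
Signal intensity (linear scale, y axis) of GSTU27, GSTU16, GSTU26 and GSTU23 against labelled time in hours (x axis), with series A, B and C as symbols and the mean ± SD of 3 arrays in black. GSTU26 is lowest at 0 h in every series, GSTU16 is highest at 0 h in every series, and the 4 h value of GSTU23 is 14.7 in series B beside 51.5 and 52.0 in series A and C.

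The 4 dimmest members lay at 34.4% or lower in the order of mean signals of all probe sets, and none passed the F test with all arrays. Without detection calls, presence of these transcripts could not be judged. GSTU28 ranged from 4.6 to 30.5 with a median of 12.0 over the 18 arrays, GSTU22 from 6.5 to 21.2 with a median of 12.15, and GSTU21 from 0.3 to 9.5 with a median of 2.0. GSTU28, GSTU22 and GSTU21 had adjusted p-values of 1, 0.973 and 0.732. GSTU25, an enzyme known to act on the explosive TNT, had 0.5, 4.3, 3.9, 0.4, 4.7 and 9.0 in series A, 5.3, 5.1, 3.1, 1.1, 5.2 and 3.8 in series B, and 2.0, 8.7, 7.4, 0.7, 4.0 and 6.5 in series C. Its lowest array was that of 12 h in each series, with a mean of 0.733 ± 0.351 at 12 h, against 4.8 ± 2.29 at 8 h and 4.63 ± 0.60 at 16 h (SD, n = 3 each). The 12 h signals lie at or below the offset of 1.1 that was added before taking logs. The range was 1.99 on the log2 scale with an adjusted p of 0.0524, which did not pass. It passed with series as a replicate block (0.0388), with no offset (0.0334), with no variance trend (0.0475), without series B (0.0487) and without the 0 h (0.0209) or 20 h (0.0487) array of series B. It did not pass in the other settings that tested it, and leaving out dim probe sets removed it from the test. With the larger offset the range was 0.77 and the adjusted p 0.101, and the adjusted p reached 0.201 on leaving out 1 array and 0.852 on leaving out 1 series.

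**Figure D3:**
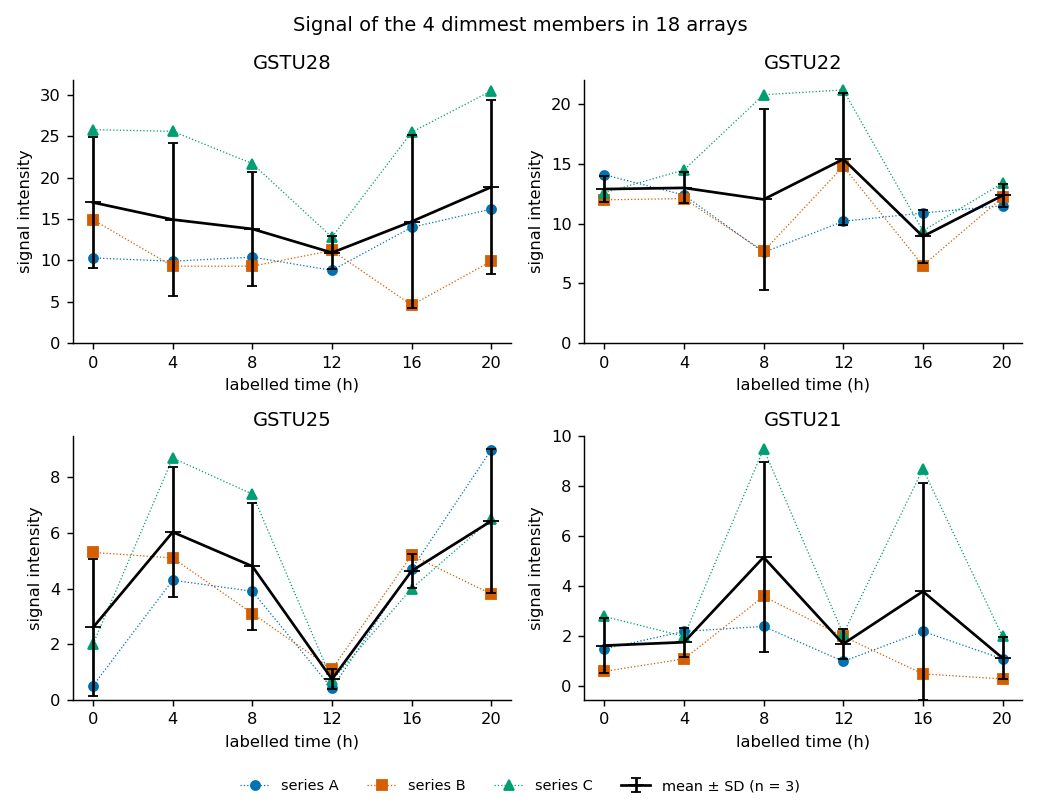
Signal intensity (linear scale, y axis) of GSTU28, GSTU22, GSTU25 and GSTU21 against labelled time in hours (x axis), with series A, B and C as symbols and the mean ± SD of 3 arrays in black. GSTU25 has its lowest value at 12 h in every series (0.4, 1.1 and 0.7), and series C lies highest for GSTU28 at every time.

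A cosine with a period of 24 h was fitted to place each course in the day. Of the 10 members, 4 passed its test, against 12.5% of all probe sets (limma moderated F test, adjusted p below 0.05), and they fell into 2 pairs of phase. GSTU20 and GSTU18, named for opposite phases when the family was picked, are among the 4. The count and the 2 phases are therefore no result about the family. GSTU20 and GSTU26 peaked at 9.67 ± 0.54 h and 10.33 ± 0.77 h, with peak-to-trough differences of 1.26 ± 0.18 and 1.12 ± 0.23 on the log2 scale (SE, adjusted p = 0.000236 and 0.00628). GSTU18 and GSTU16 peaked at 22.50 ± 0.46 h and 22.89 ± 0.95 h, with differences of 1.37 ± 0.17 and 0.85 ± 0.21 (SE, adjusted p = 5.55e-05 and 0.0277). These hours belong to the fitted curve, and the highest measured mean of GSTU18 and of GSTU16 was at 0 h. Without the arrays labelled 4 h and 16 h in series B, 5 members passed, against 17.7% of all probe sets, and with series as a replicate block 4 passed, against 18.4%.

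Fitted within 1 series at a time, the hours kept to the same part of the day. GSTU20 peaked at 9.01, 11.36 and 8.61 h in series A, B and C, and GSTU26 at 8.09, 10.92 and 12.34 h. GSTU18 peaked at 21.85, 22.67 and 22.87 h, and GSTU16 at 0.02, 22.99 and 22.01 h. For GSTU20 the hours of series A and C lay closer together than the SE from all arrays, and that of series B, whose fit holds the arrays labelled 4 h and 16 h, stood apart. For GSTU26 all 3 series differed by more than the SE. Without the arrays labelled 4 h and 16 h in series B the peak was at 9.20 ± 0.57 h for GSTU20, 10.11 ± 0.92 h for GSTU26, 22.50 ± 0.52 h for GSTU18 and 23.44 ± 1.02 h for GSTU16 (SE).

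The cosine call of GSTU16 was the least steady of the 4. Its adjusted p was 0.0588 with arrays shifted to equal medians and 0.0812 to 0.185 without 1 series. It was also lost on leaving out 1 array, which was 0 h in series A (0.0724) or C (0.0834), 8 h in series A (0.0531) or C (0.0533), or 12 h in series B (0.0781). GSTU26 lost its call without series A (0.0612) and without series B (0.141). GSTU27, with a fitted peak at 12.31 ± 1.3 h, had an adjusted p of 0.144, and of 0.0402 without the arrays labelled 4 h and 16 h in series B and 0.0494 without series B. The other 5 members had adjusted p-values between 0.521 and 0.932.

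**Figure D4:**
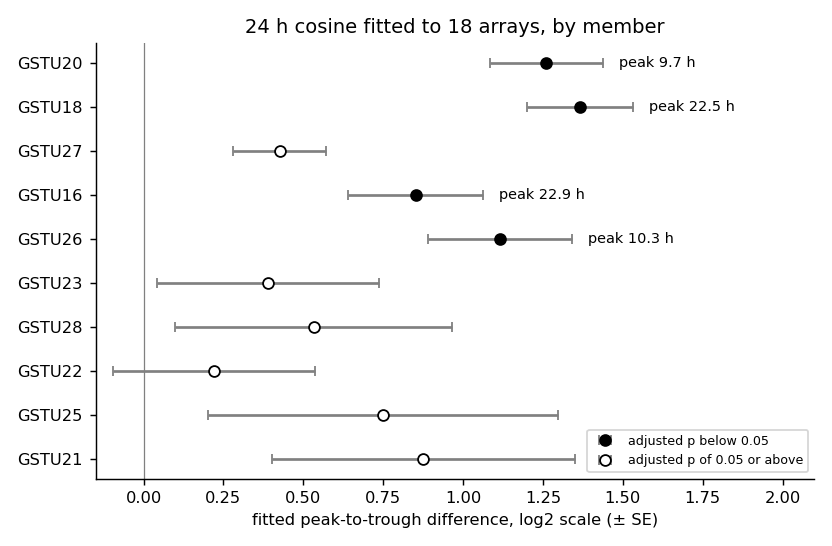
Fitted peak-to-trough difference of a 24 h cosine on the log2 scale (x axis, ± SE over 18 arrays) for each member (rows, in order of mean signal). Filled points passed the limma F test and carry their fitted peak hour: GSTU20 and GSTU26 peak at 9.7 and 10.3 h, GSTU18 and GSTU16 at 22.5 and 22.9 h.

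Set against 0 h, the 12 h rosettes held more GSTU20 and GSTU26 RNA and less GSTU18 and GSTU16 RNA. Of the 10 members, 2 were higher and 2 were lower at 12 h, against 10.9% of all probe sets called in either direction, 5.43% higher and 5.44% lower (limma, adjusted p below 0.05). GSTU20 and GSTU18, named for opposite phases when the family was picked, are among them, so this count is no result about the family. GSTU20 averaged 1763 ± 180 at 12 h and 740.8 ± 117.9 at 0 h, a ratio of 2.38 and a log2 difference of 1.26 ± 0.21 (SE, limma adjusted p = 0.000851). GSTU26 averaged 55.7 ± 16.5 at 12 h and 23.3 ± 1.99 at 0 h, a ratio of 2.39 and a log2 difference of 1.18 ± 0.27 (adjusted p = 0.00879). GSTU18 averaged 219 ± 46.4 at 12 h and 548.7 ± 39.6 at 0 h, a ratio of 0.398 and a log2 difference of -1.34 ± 0.16 (adjusted p = 4.04e-05). GSTU16 averaged 89.1 ± 31.5 at 12 h and 159.1 ± 34.9 at 0 h, a ratio of 0.56 and a log2 difference of -0.88 ± 0.26 (adjusted p = 0.0406). In these 4 genes the arrays of the 2 times did not overlap, and each series moved in the same direction. That also held for GSTU27, which was not called (limma adjusted p = 0.176). GSTU28 and GSTU25, with overlap and no call, were lower at 12 h in every series. The shares of all probe sets without overlap, and with the same direction in every series, were not counted. Neither trait is therefore a result about the members. The same count of 4 called members stood against 13.5% of all probe sets without the arrays labelled 4 h and 16 h in series B. The median difference of the members was -0.07, beside 0.03 for all probe sets.

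For GSTU18 the call between 12 h and 0 h held in every setting tried. That of GSTU20 was lost only without series A (adjusted p = 0.0767). That of GSTU26 was lost without the 12 h array of series B (0.051) and without any 1 series (0.0804 to 0.0967). That of GSTU16 was lost with quantile normalization (0.0679), equal medians (0.0665), no offset (0.0524) and no variance trend (0.069), and without any 1 series (0.0796 to 0.192). It was also lost in 7 of 18 omissions of 1 array. The difference was -0.54 without the 12 h array of series B (0.193) and -0.71 without the 0 h array of series C (0.168). The other 5 gave -0.90 with 0 h of series A left out (0.0951), and -0.88 with 8 h of series A (0.0512) or 20 h of series A (0.0525), B (0.0514) or C (0.0518) left out.

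Between 20 h and 8 h, GSTU18 was higher and GSTU20 lower at 20 h, which made 2 of 10 members called, against 3.26% of all probe sets, 1.82% higher and 1.45% lower. Both were named for opposite phases when the family was picked, so this count is no result about the family. GSTU18 averaged 467 ± 32.2 at 20 h and 232 ± 16.7 at 8 h, a ratio of 2.01 and a log2 difference of 1.0 ± 0.16 (SE, limma adjusted p = 0.00211). GSTU20 averaged 912 ± 114 at 20 h and 1720 ± 173 at 8 h, a ratio of 0.53 and a log2 difference of -0.92 ± 0.21 (limma adjusted p = 0.0236). All 3 series moved the same way for both genes, and without the arrays labelled 4 h and 16 h in series B the same count of 2 stood against 5.64% of all probe sets. The call of GSTU18 was lost without series A (0.0588) and without series C (0.0667). That of GSTU20 was lost without series A (0.607) or C (0.115), and without the 8 h array of series A (0.0861) or C (0.0904) or the 20 h array of series A (0.109) or B (0.0868). GSTU26 and GSTU16 moved in the same directions as GSTU20 and GSTU18 in every series, by -0.74 ± 0.27 and 0.56 ± 0.26, without a call (limma adjusted p = 0.179 and 0.339). GSTU21, with mean signals of 1.13 at 20 h and 5.17 at 8 h, was also lower in every series (-1.40 ± 0.57, limma adjusted p = 0.242). GSTU23 and GSTU28 were higher in every series, also without a call. The share of all probe sets that moved the same way in every series was not counted, so these directions are descriptions.

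Between 16 h and 4 h limma called 0 of 10 members, against 0% of all probe sets. At an unadjusted p below 0.05 there were 0 of 10 members and 391 of all probe sets. GSTU20 averaged 1122 ± 185 at 16 h and 1449 ± 436 at 4 h, a log2 difference of -0.33 ± 0.21 (SE). In series B the 16 h array was the higher, with 1335.1 at 16 h and 981.7 at 4 h. It was the lower in series A, with 1006.6 at 16 h and 1519.9 at 4 h, and in series C, with 1024.7 at 16 h and 1844.9 at 4 h. Without the arrays labelled 4 h and 16 h in series B the difference was -0.72 ± 0.20 (SE, limma adjusted p = 0.0626), and 0 of 10 members were called against 3.29% of all probe sets.

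Steps between neighbouring times were compared after the values had been seen. Between 4 h and 0 h, GSTU20 was 1.96 times as high at 4 h (log2 difference 0.93 ± 0.21, SE, limma adjusted p = 0.0252) and GSTU18 0.493 times (-1.02 ± 0.16, limma adjusted p = 0.00217), so that 2 of 10 members were called against 2.71% of all probe sets, 1.41% higher and 1.31% lower. They are again the genes named for opposite phases, so this count is no result about the family. Without the arrays labelled 4 h and 16 h in series B the differences were 1.19 ± 0.18 for GSTU20 and -1.04 ± 0.19 for GSTU18 (SE, limma adjusted p = 0.000965 and 0.0031). The call of GSTU20 was lost without the 0 h array of series A (0.0828) or B (0.116) or the 4 h array of series A (0.0971) or C (0.153), without series A (0.501) or C (0.23), and with no variance trend (0.0518). That of GSTU18 was lost without series A (0.0548) and without series C (0.107). No member was called in the other 5 steps, and the members with an unadjusted p below 0.05 numbered 3 at 16 h against 12 h and 1 in each of the others. At that unadjusted p there were 1632 of all 22746 probe sets at 8 h against 4 h, 265 at 12 h against 8 h, 1577 at 16 h against 12 h, 862 at 20 h against 16 h and 1418 at 0 h against 20 h. After adjustment, among all probe sets the called share was 0.391% at 8 h against 4 h (0.202% higher, 0.189% lower), 0% at 12 h against 8 h and 0.273% at 16 h against 12 h (0.114% higher, 0.158% lower). It was 0.0176% at 20 h against 16 h (0.00879% in each direction) and 0.198% at 0 h against 20 h (0.0747% higher, 0.123% lower). The largest of these differences for GSTU18 was at 20 h against 16 h, with 491.8, 478.3 and 430.5 at 20 h and 314.2, 248.8 and 205.9 at 16 h for series A to C. Its log2 difference there was 0.88 ± 0.16 (SE, limma adjusted p = 0.117, and 0.00747 with series as a replicate block, 0.0431 with quantile normalization and 0.0485 without the 16 h array of series A). GSTU20 differed by -0.66 ± 0.21 between 16 h and 12 h (SE, adjusted p = 0.33, and 0.0465 without the arrays labelled 4 h and 16 h in series B).

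Across the 18 arrays the members fell into a few like and unlike pairs. The pair GSTU20 and GSTU18 was named for its opposite phases when the family was picked, and no test of its r is given. Of the other 44 pairs, 4 passed a two-sided permutation test of Pearson's r with Benjamini-Hochberg adjustment over all 45, 2 with a positive and 2 with a negative r, each with the same sign within series A, B and C. The test shuffled all 18 arrays freely, though arrays of 1 time or 1 series belong together. Its p-values therefore do not measure likeness beyond a shared time course, and all 4 pairs lie among the members that passed the cosine test. Keeping the named pair in the adjustment also lowered the other adjusted p-values. GSTU20 and GSTU26 rose and fell together (r = 0.781, permutation p = 0.00026, adjusted p = 0.0039, rho = 0.754 with permutation p = 0.00046, adjusted p = 0.0069, n = 18), and r was 0.946, 0.935 and 0.538 within series A, B and C (n = 6 each). GSTU18 and GSTU16 did so too (r = 0.696, permutation p = 0.00071, adjusted p = 0.00799, rho = 0.736 with permutation p = 0.00089, adjusted p = 0.01), with 0.575, 0.721 and 0.773 within the series.

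GSTU20 and GSTU18 opposed each other, as the choice of the pair set, with r of -0.832 and rho of -0.812 over 18 arrays and r of -0.932, -0.953 and -0.711 within series A, B and C. GSTU18 and GSTU26 had r of -0.786 (permutation p = 0.00017, adjusted p = 0.00383) and rho of -0.75 (permutation p = 0.00046, adjusted p = 0.0069), with -0.867, -0.92 and -0.569 within the series. GSTU16 and GSTU26 had r of -0.656 (permutation p = 0.00232, adjusted p = 0.0209), with -0.425, -0.77 and -0.755 within the series, but their rho of -0.564 did not pass (permutation p = 0.0162, adjusted p = 0.109), and with arrays shifted to equal medians r was -0.593 and the call was lost (adjusted p = 0.0805). Leaving out the 2 arrays farthest from the median of the first gene gave r of 0.76 for GSTU20 with GSTU26, 0.651 for GSTU18 with GSTU16, -0.788 for GSTU20 with GSTU18, -0.714 for GSTU18 with GSTU26 and -0.417 for GSTU16 with GSTU26. The last of these rests in part on those arrays.

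Within each array, the log2 signal of GSTU20 minus that of GSTU18 does not depend on a scaling factor shared by the array. The absolute size has no meaning between 2 probe sets, but its course does. It averaged 0.42 ± 0.27 at 0 h, 2.37 ± 0.54 at 4 h, 2.88 ± 0.15 at 8 h, 3.02 ± 0.32 at 12 h, 2.13 ± 0.40 at 16 h and 0.96 ± 0.28 at 20 h (SD, n = 3 each). It was 2.60 higher at 12 h than at 0 h and 1.92 lower at 20 h than at 8 h, with no overlap of the arrays in either comparison. Between 16 h and 4 h it differed by -0.24, and by -0.66 over series A and C, without the arrays labelled 4 h and 16 h in series B. These values describe a pair chosen for its opposite phases, and 3 arrays against 3 cannot reach a p under 0.1, so no test is given.

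The genes most like each changing member were sought by Pearson's r over the 18 arrays. The search covered 5944 named genes without GST in the symbol and with a mean signal at or above that of the median probe set. Transferases under other symbols were not excluded. The values of r describe a selection from many genes that share the same arrays, and no p is given. For GSTU20 the closest were AT2G37990 (r = 0.965) and AT2G25450 (r = 0.961), the second with mean signals of 303.6 at 0 h, 860 at 4 h, 1093 at 8 h, 989 at 12 h, 582 at 16 h and 402 at 20 h. For GSTU18 they were AT4G15430 (r = 0.947) and AT2G33250 (r = 0.943), the first with 282.5 at 0 h, 29.0 at 4 h, 13.8 at 8 h, 19.0 at 12 h, 32.1 at 16 h and 123 at 20 h. For GSTU26 they were AT3G07750 (r = 0.878) and AT3G55760 (r = 0.868). The course of AT4G15430 has its highest mean at 0 h and its next highest at 20 h, as that of GSTU18 does.

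Differences between series were tested after the values had been seen, in a fit with times and series. Of the 10 members, 3 differed between series, against 27.8% of all probe sets, so the members' share is near that of the array as a whole. GSTU28 averaged 23.6 ± 6.0 over the 6 arrays of series C, 11.6 ± 2.86 over those of series A and 9.87 ± 3.33 over those of series B (SD; limma F test, adjusted p = 0.00872), and its series C array was the highest at all 6 times. GSTU21 also had its highest mean in series C (adjusted p = 0.0272), whereas GSTU18 had its highest in series A, with 367 ± 141 there, 324.5 ± 145 for series B and 305 ± 136 for series C (SD over 6 arrays, adjusted p = 0.0294). Series C also had the higher 3'/5' ratios, and RCA averaged 6258 ± 1388 over its arrays, 3127 ± 233 over those of series A and 3426 ± 390 over those of series B (SD). Their part in these differences was not tested.

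Other genes of glutathione metabolism were taken from lists of the phi class, other transferase classes, glutathione synthesis and reduction, and conjugate transport and breakdown, of which 2 of 13, 1 of 12, 2 of 4 and 0 of 10 had a named probe set. A list of the TGA factors known to bind stress elements of such genes had 0 of 9. Of the 5 measured genes, GR1 alone changed over the 6 times. GR1 is the glutathione reductase of cytosol and peroxisomes, which returns oxidised glutathione to its reduced form. Its signal was 539.8, 515.0, 175.5, 198.5, 170.4 and 358.3 over the 6 times in series A. It was 540.1, 554.6, 163.2, 200.4, 171.4 and 355.0 in series C. It was 571.7, 261.8, 219.7, 238.6, 576.8 and 412.3 in series B. Series A and C ran closely together, while series B was lower than both at 4 h and higher than both at 16 h. The F test gave an adjusted p of 0.0419 with all arrays and 6.86e-07 without the arrays labelled 4 h and 16 h in series B, and the fitted peak was at 23.56 ± 0.74 h with all arrays and 0.55 ± 0.45 h without these (SE).

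GR, the reductase of plastids and mitochondria, had 672.8, 729.4, 587.2, 445.8, 442.2 and 519.3 in series A, 819.6, 538.7, 452.8, 609.4, 787.1 and 677.3 in series B, and 627.6, 825.2, 591.0, 527.1, 388.5 and 560.8 in series C. It was not called with all arrays, but was called without those labelled 4 h and 16 h in series B (limma F test, adjusted p = 0.755 with all arrays and 0.0344 without). Those arrays were picked for their disagreement in the same data, so the lower p-values of GR and GR1 without them follow in part from that choice. GSTL3, a lambda class transferase, had a range of 0.20 over the day (adjusted p = 1), and it averaged 451 ± 24.4 over the arrays of series C, 685 ± 52.2 over those of series A and 627 ± 72.1 over those of series B (SD, 6 arrays each, adjusted p between series = 0.000218). GSTF4 and ATGSTF13 of the phi class gave no call (limma F test, adjusted p = 0.951 and 0.954).

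**Figure D5:**
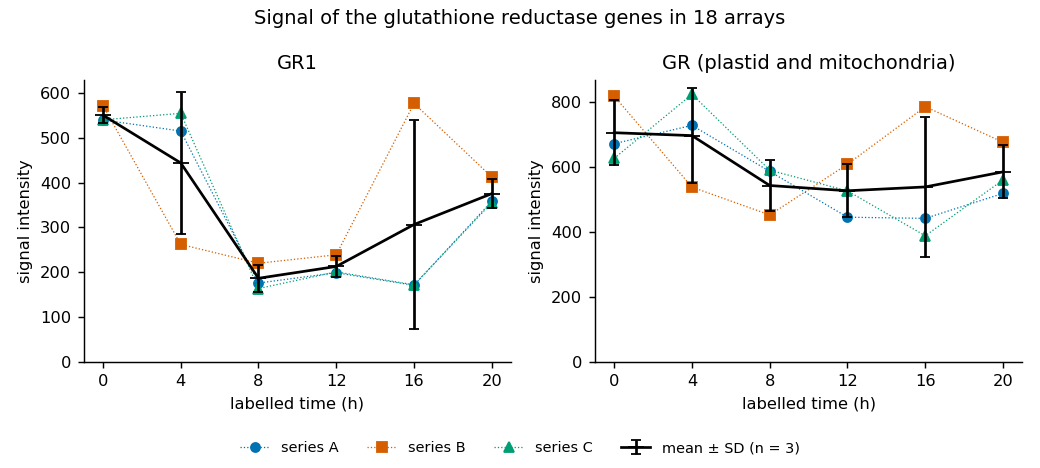
Signal intensity (linear scale, y axis) of the glutathione reductase genes GR1 (left) and GR (right) against labelled time in hours (x axis), with series A, B and C as symbols and the mean ± SD of 3 arrays in black. For GR1, series B has 261.8 at 4 h, where series A and C have 515.0 and 554.6, and 576.8 at 16 h, where they have 170.4 and 171.4.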

How the data were processed

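The authors deposited 1 linear signal intensity for each probe set of each array, made with MAS5 per the submitters' processing notes. The mean trimmed by 2% at each end was 100.01 on every array, so the authors had scaled the deposited intensities. Array medians lay between 32.2 and 39.8. Of 153 pairs of arrays, 0 were identical. The number of arrays limits the precision, and depth does not apply.

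Intensities were analysed as log2(value + 1.1), with 1.1 the 10th percentile of all values, so log2 differences understate changes of dim probe sets. The 64 control probe sets were left out, and 22746 were tested with limma 3.58.1 in R 4.3.3 on all 18 arrays (eBayes with trend, Benjamini-Hochberg adjustment over all, calls below 0.05) and checked on simulated data. Symbols come from the platform annotation, updated through RefSeq's TAIR10.1 table. The files name no build, so no coordinates are given.

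The members and gene lists were chosen with earlier results of these data known. Named genes are the members, the GSTU gene below them, the measured genes of the lists and the 2 genes most like each changing member. Promoter motifs and protein sequences were not analysed here. The replicate letters pair arrays, since each letter is 1 separately grown course per the series' design text: deviations from time means correlated on average by 0.174, 0.161 and 0.328 within series A, B and C, and by -0.109 between series, with a lowest value of -0.277 within series B. Deviations of 1 time cancel across the series, so the negative mean between series follows from those within series and is no separate evidence. Permutation tests of r drew 100000 resamples. Alternatives were quantile normalization, equal medians, no offset, the offset at the 25th percentile, dim probe sets left out, no trend, a replicate block, and arrays or series left out.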

Additional observations from a re-analysis of the deposited data

How the results depend on the processing

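No sign was reversed in any called difference. The count of members changed over the 6 times was 3, and 2 to 4 under other settings: 4 with series as a replicate block (where 11.3% of all probe sets were called, against 6.53% without it), 4 with no offset and 2 with the larger offset. It stayed 3 with no variance trend, where GSTU25 was called and GSTU26 was not. Leaving out a series or an array gave 1 to 4. The count with a 24 h cosine was 4, from 3 with equal medians to 5 when the arrays labelled 4 h and 16 h in series B are dropped (where 17.7% of all probe sets were called, against 12.5% with them), and 2 to 4 with a series or array left out. Between 12 h and 0 h the count was 4, and 3 with no offset, with quantile normalization, with equal medians and with no variance trend. There it was 1 to 4 with a series or array left out, with the lowest without series A. Between 20 h and 8 h it was 2, and 0 to 2 on leaving out, with 0 without series A and 0 without series C. Between 16 h and 4 h it was 0 in every setting. As a replicate block, series changed the calls of GSTU25 over the 6 times and of GSTU18 between 20 h and 16 h, and no other call of a member. The pairs of members called, with the pair GSTU20 and GSTU18 included, numbered 5, and from 4 with equal medians to 6 with quantile normalization. Dropping the same 2 arrays moved the difference of GSTU20 minus GSTU18 between 16 h and 4 h to -0.66, against -0.24 with them. No gene had a second probe set, so that alternative was not run. With 3 arrays per time, members below the median signal are the least certain, and causes of lost calls were not tested.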
